A study of Mus musculus with 22 samples.

Results

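miR-378a-3p and miR-378b, the entries mmu-miR-378a-3p and mmu-miR-378b, are 2 of the 1247 mouse miRNAs on an Agilent miRNA array, and both were described here over all 22 arrays of a study of cyclosporin A in primary mouse hepatocytes. They were taken by name, as the array entries for the miRNA of a Ppargc1b intron and for a related miRNA of another locus. The names had been picked from earlier results on these same arrays, in which both entries were lower with cyclosporin A than with solvent. The pair's values that involve cyclosporin A are therefore given as a description, with no test, and support nothing. The DMSO arrays served as the controls there. The change with culture time in DMSO was the comparison that could be tested.

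The cells were primary hepatocytes of C57Bl6 mice, grown in serum-containing medium, and cyclosporin A (CsA) is an immunosuppressant that inhibits calcineurin and can impair bile flow in the liver. The medium held either CsA or the solvent, 0.5% DMSO. At 24 h there were 5 DMSO arrays, 3 arrays of 10 µM CsA and 2 arrays of 50 µM CsA, and at 48 h there were 6, 3 and 3. The labels call the replicates biological without saying whether cells came from separate animals. They also carry a number after "Ex.", from 1 to 3. Each number holds 2 DMSO arrays at 48 h, and numbers 1, 2 and 3 hold 1, 2 and 2 at 24 h. Every array is also tagged IC20-24h or IC20-48h in its label. All 10 µM arrays carry IC20-48h and all 50 µM arrays IC20-24h, while DMSO arrays carry either tag. Where a number holds 2 DMSO arrays of a time, their tags differ. CsA was compared with all DMSO arrays of its time, whatever the tag. The treatment text speaks of HepG2, a human hepatoma line, while every other label says mouse hepatocytes. The design text counts 24 arrays, of which 22 were analysed.

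miR-378a comes from a hairpin that is transcribed with Ppargc1b, the gene of PGC-1β, a coactivator that raises mitochondrial and lipid-synthesis genes. A hairpin gives 2 arms, and miR-378a-3p is the arm that tissues usually retain, while the 5p arm is mostly degraded. In liver, muscle and fat, miR-378 is known for limiting oxidative metabolism and for effects on insulin signalling, through mRNAs of metabolic enzymes and of transcription cofactors. A miRNA finds its mRNAs mainly through its seed, bases 2 to 8. In the RefSeq gene table for GRCm38.p6, Mir378a lies within the span of Ppargc1b, and Mir378b lies within the span of Msi2 on chromosome 11. The name "Ppargc1b intron miRNA" therefore covers miR-378a-3p and not miR-378b.

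The mature sequences of miR-378b and of its relative miR-378d (RefSeq, GRCm38.p6) are shown because their brighter probes followed each other most closely in these arrays. Their other probe pairs followed each other less closely, at r = 0.79 to 0.84. Capitals mark the seed. miR-378b is at chr11:88352839-88352858 on the plus strand, and miR-378d is at chr10:126710355-126710376 on the minus strand, outside any gene span in the table.
miR-378b: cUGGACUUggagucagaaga
miR-378d: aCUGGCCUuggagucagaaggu
The seeds differ. The miRNAs share an unbroken run of 14 bases, positions 6 to 19 of miR-378b and 7 to 20 of miR-378d. miR-378c, which shares a run of 19 bases with miR-378b, was above background on 1 array. Cross-reaction between such similar entries was not tested.

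The scanner files and the deposited value table disagree on sample names, which touches every dose result. Each of the 22 columns of the table was rebuilt exactly from an array file (rank correlation 1; at most 0.968 with any other array). Only 6 columns carried the name of that array, 8 CsA columns carried the other dose and 8 DMSO columns the name of another DMSO array of the same time. Dose results are given first by the names of the files and then by those of the table; time, treatment and the pooled doses are the same under both. Each array gave 49880 spots, and values are log2 of the signal over the array's 75th percentile, which lay between 188 and 605. Between 201 and 400 miRNAs were detected per array, and 289 miRNAs above background on at least 3 arrays were tested. The negative controls averaged 215.3 on the array filed as 10 µM, 24 h, replicate 3, against a median of 2.95 over arrays. The arrays lay on 3 slides. By the file names, 50 µM, 48 h, replicates 2 and 1 had 201 and 206 miRNAs detected, and 10.3% and 9.24% of spots marked as outliers. The median outlier share over arrays was 4.01%. It was 8.44% on 10 µM, 48 h, replicate 2, and 8.40% on DMSO, 48 h, replicate 6, which had 236 miRNAs detected. These arrays lay on slide 1, where that DMSO array was the only one of 48 h.

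Both miRNAs were measured well above background on every array. Each has 2 probes of 20 spots. The brighter miR-378a-3p probe read from 62.7 to 168 intensity units with a median of 85.3, and its spots varied by a median of 7.88% (CV). The brighter miR-378b probe read from 49.3 to 104.1 units with a median of 76.4 and a spot CV of 6.38%. These brighter probes represent the miRNAs below, and levels are not compared between them, since each probe has its own efficiency. The dimmer miR-378a-3p probe was also above background on 22 arrays, and the dimmer miR-378b probe on 15. Of the 3 other miR-378 entries, miR-378d was above background on 22 arrays, miR-378c on 1 and the 5p arm of miR-378a on 10. On the scaled log2 scale miR-378a-3p spanned 0.95, a 1.93-fold range over all arrays, and miR-378b spanned 1.42, a 2.68-fold range.

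In DMSO, neither miRNA changed detectably between 24 h and 48 h of culture. miR-378a-3p stood at -1.90, -1.79, -1.52, -1.40 and -1.23 on the DMSO arrays of 24 h (log2 scaled level). At 48 h its lowest, median and highest DMSO values were -1.87, -1.72 and -1.67. The 24 h values were spread widely and enclosed all those of 48 h. The means were -1.57 ± 0.28 (SD, n = 5) and -1.74 ± 0.07 (SD, n = 6), a difference of -0.17 ± 0.11 (SE; limma, adjusted p = 0.649), with a 95% interval from -0.41 to 0.07. miR-378b stood at -2.04, -2.0, -1.76, -1.35 and -1.34 at 24 h, and at 48 h its lowest, median and highest values were -2.11, -1.81 and -1.75. Its groups overlapped too. The means were -1.70 ± 0.34 (SD, n = 5) and -1.89 ± 0.17 (SD, n = 6), with a difference of -0.19 ± 0.17 (SE; limma, adjusted p = 0.807) and an interval from -0.53 to 0.16. An adjusted p above the threshold does not show that the levels were equal at both times. limma called 0% of the 289 miRNAs in this comparison at an adjusted p under 0.05, and 35 (12.1%) at an unadjusted p under 0.05. Within the 3 slides the DMSO difference lay between -0.35 and -0.11 for miR-378a-3p and between -0.53 and -0.10 for miR-378b. Within the 3 numbers after "Ex." it lay between -0.30 and -0.11 and between -0.44 and -0.09. DMSO arrays that share a number were counted as separate here. With that number as a block, more miRNAs were called over time in DMSO, as given in the last section.

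After 24 h of CsA most arrays lay in the lower part of the DMSO range. By the file names, miR-378a-3p stood at -1.84, -1.75 and -1.59 with 10 µM and at -2.18 and -1.74 with 50 µM. All 5 CsA values were below the DMSO median of -1.52, and 1 was below the lowest DMSO value. miR-378b stood at -2.18, -2.03 and -1.66 with 10 µM and at -2.36 and -1.93 with 50 µM. Here 4 of 5 values were below the DMSO median of -1.76 and 2 were below the lowest DMSO value, so the groups overlapped. With the doses pooled, the difference from DMSO was -0.25 ± 0.12 for miR-378a-3p and -0.33 ± 0.17 for miR-378b (SE, n = 5 and 5), while the median of all miRNAs tested was 0.05. Over all miRNAs, 36.7% had a difference below 0.

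After 48 h of CsA both miRNAs were lower than on nearly all DMSO arrays. By the file names, miR-378a-3p stood at -2.07, -2.01 and -1.85 with 10 µM and at -2.18, -2.15 and -2.02 with 50 µM. All 3 of the 50 µM values and 2 of the 10 µM values were below the lowest of the 6 DMSO values. The remaining array was the one filed as 10 µM replicate 3. miR-378b stood at -2.64, -2.52 and -2.0 with 10 µM and at -2.76, -2.35 and -2.29 with 50 µM. Again 5 of 6 CsA values were below the lowest DMSO value, and here the exception was the array filed as 10 µM replicate 1. All 6 CsA values were below the DMSO median for both miRNAs. Groups that did not overlap, lower with 50 µM than with DMSO, were found for 2.08% of all miRNAs tested; since the pair was picked with CsA values known, nothing is read from the pair's place among them.

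**Figure D1:**
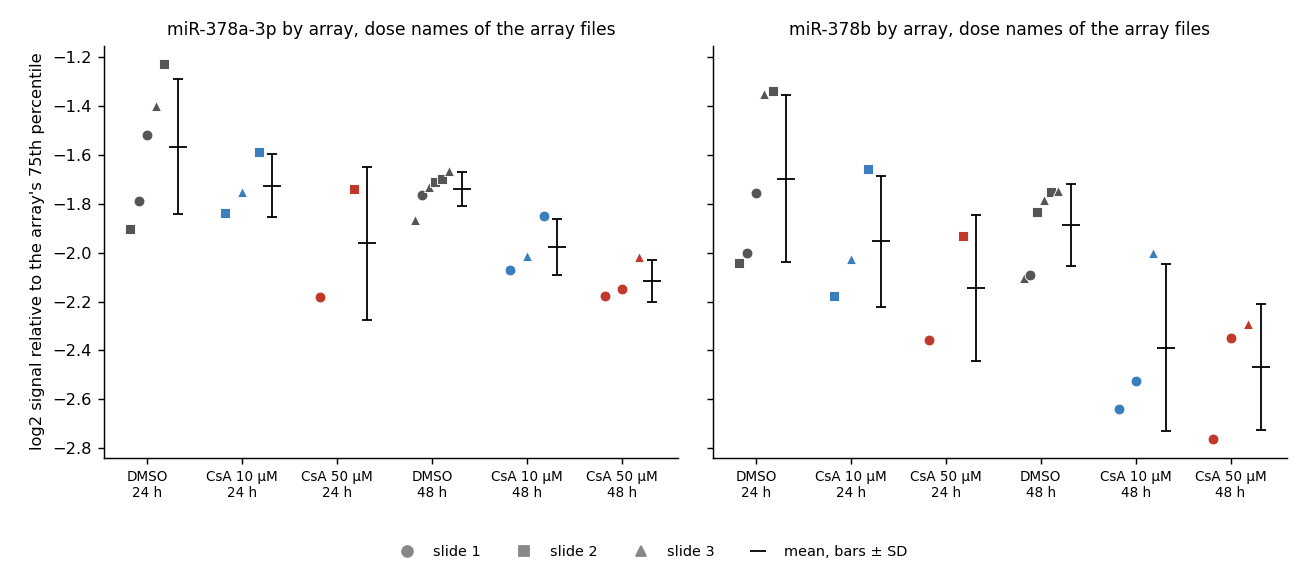
Log2 scaled signal of miR-378a-3p (left) and miR-378b (right) on each of the 22 arrays (y axis), by treatment and time as the array files name them (x axis); symbols give the slide, and bars the mean ± SD. At 48 h the DMSO arrays of miR-378a-3p lie between -1.87 and -1.67 and the CsA arrays between -2.18 and -1.85.

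In group means at 48 h, miR-378a-3p was -1.74 ± 0.07 (SD, n = 6) in DMSO, -1.98 ± 0.11 (SD, n = 3) with 10 µM and -2.12 ± 0.08 (SD, n = 3) with 50 µM. The differences from DMSO were -0.24 ± 0.13 with 10 µM and -0.38 ± 0.13 with 50 µM (SE). miR-378b was -1.89 ± 0.17 in DMSO, -2.39 ± 0.34 with 10 µM and -2.47 ± 0.26 with 50 µM (SD), with differences of -0.50 ± 0.19 and -0.58 ± 0.19 (SE). With the doses pooled, the differences were -0.31 ± 0.11 for miR-378a-3p and -0.54 ± 0.15 for miR-378b (SE, n = 6 and 6), which is 1.24-fold and 1.46-fold lower than DMSO. Of the 289 miRNAs, the median pooled difference was 0.10, and 36.3% were below 0. Relative to that median the pair stood at -0.41 and -0.64.

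The size of the 48 h difference depended on the scaling and the probe, and its sign did not in any of the alternatives run. With each array scaled over all probes, above background or not, the pooled values were -0.73 and -0.96, and the median of all miRNAs moved from 0.10 to -0.16. The dimmer probes read -0.20 for miR-378a-3p and -0.21 for miR-378b, the latter a probe above background on 15 arrays, which lay on the floor on 4 of the 6 CsA arrays of 48 h.

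The names of the value table move arrays between the doses, and the order of the doses for miR-378a-3p depended on both the names and the scaling. By the file names the order for miR-378b depended on the scaling too. By the table names miR-378a-3p stood at -2.15, -2.02 and -2.01 with 10 µM at 48 h and at -2.18, -2.07 and -1.85 with 50 µM. The differences from DMSO were then -0.32 ± 0.14 with 10 µM and -0.29 ± 0.14 with 50 µM (SE, n = 3 and 6). Scaling over all probes turned that order to -0.59 and -0.87, and so did quantile normalisation (-0.37 and -0.69), normexp (-0.15 and -0.25), both together (-0.22 and -0.37) and the deposited values (-0.30 and -0.53). By the file names, where 50 µM had been the lower, scaling over all probes gave -0.75 with 10 µM and -0.71 with 50 µM, and quantile normalisation gave -0.54 and -0.53. In the scaling used here, it was now the 10 µM group that lay wholly below DMSO, as 0.692% of all miRNAs did in that comparison. miR-378b stood at -2.35, -2.29 and -2.0 with 10 µM and at -2.76, -2.64 and -2.52 with 50 µM. The 3 lowest of its 22 values formed the 50 µM group, and the differences from DMSO were -0.33 ± 0.17 with 10 µM and -0.76 ± 0.17 with 50 µM (SE). The 50 µM group lay wholly below DMSO for miR-378b, as for 10.0% of all miRNAs tested, a much larger background than by the file names. By the file names, miR-378b differed from DMSO by -0.50 with 10 µM and -0.58 with 50 µM. Scaling over all probes turned that order, to -1.01 and -0.91.

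**Figure D2:**
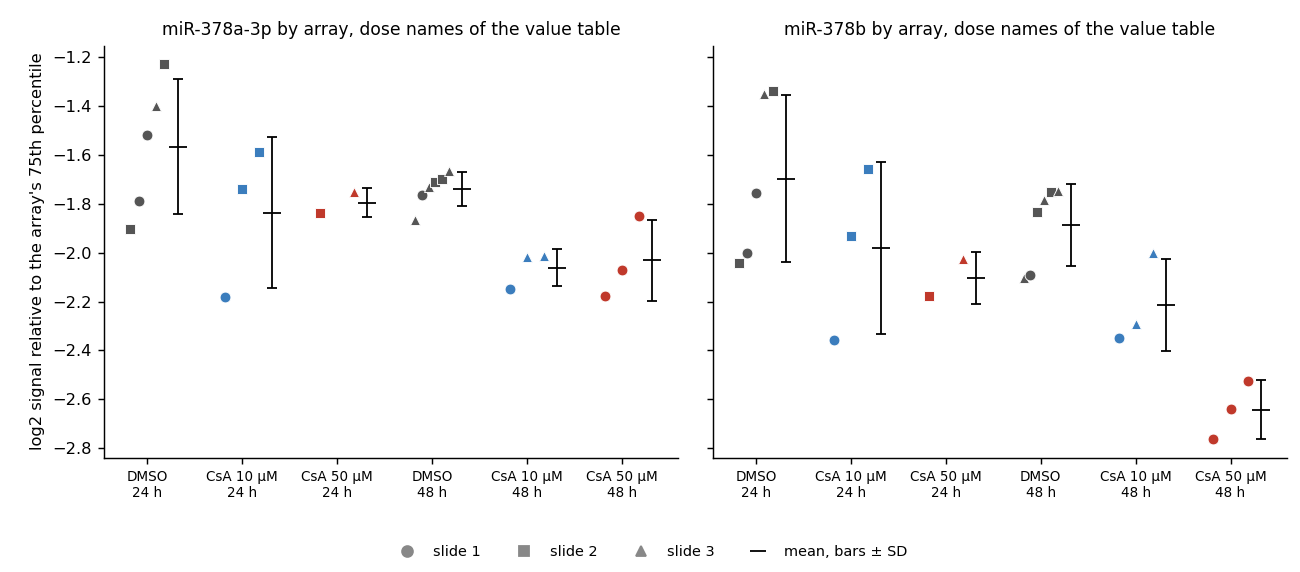
The same log2 scaled signals (y axis), with the arrays placed in groups by the names of the value table (x axis); symbols give the slide, and bars the mean ± SD. The 3 arrays named 50 µM, 48 h all lie on slide 1 and hold the 3 lowest miR-378b values, -2.76, -2.64 and -2.52.

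At 24 h, the table names gave miR-378a-3p values of -2.18, -1.74 and -1.59 with 10 µM and of -1.84 and -1.75 with 50 µM. The differences from DMSO were -0.27 ± 0.14 and -0.23 ± 0.16, against -0.16 ± 0.14 and -0.39 ± 0.16 by the file names (SE). For miR-378b the table names gave -0.28 ± 0.18 with 10 µM and -0.40 ± 0.20 with 50 µM, against -0.26 ± 0.20 and -0.45 ± 0.23 by the file names. The 50 µM group has 2 arrays, and by the file names the miR-378a-3p difference was -0.17 without replicate 2 and -0.61 without replicate 3. Between the doses at 24 h, miR-378a-3p differed by -0.24 ± 0.17 by the file names and by 0.04 ± 0.18 by the table names (SE, 50 µM minus 10 µM), while miR-378b differed by -0.19 ± 0.25 and -0.12 ± 0.22. The change of sign with the naming was not kept under other scalings: by the table names, 10 µM and 50 µM differed from DMSO by -0.19 and -0.38 over all probes, by -0.20 and -0.41 with quantile normalisation and by -0.15 and -0.49 in the deposited values.

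**Figure D3:**
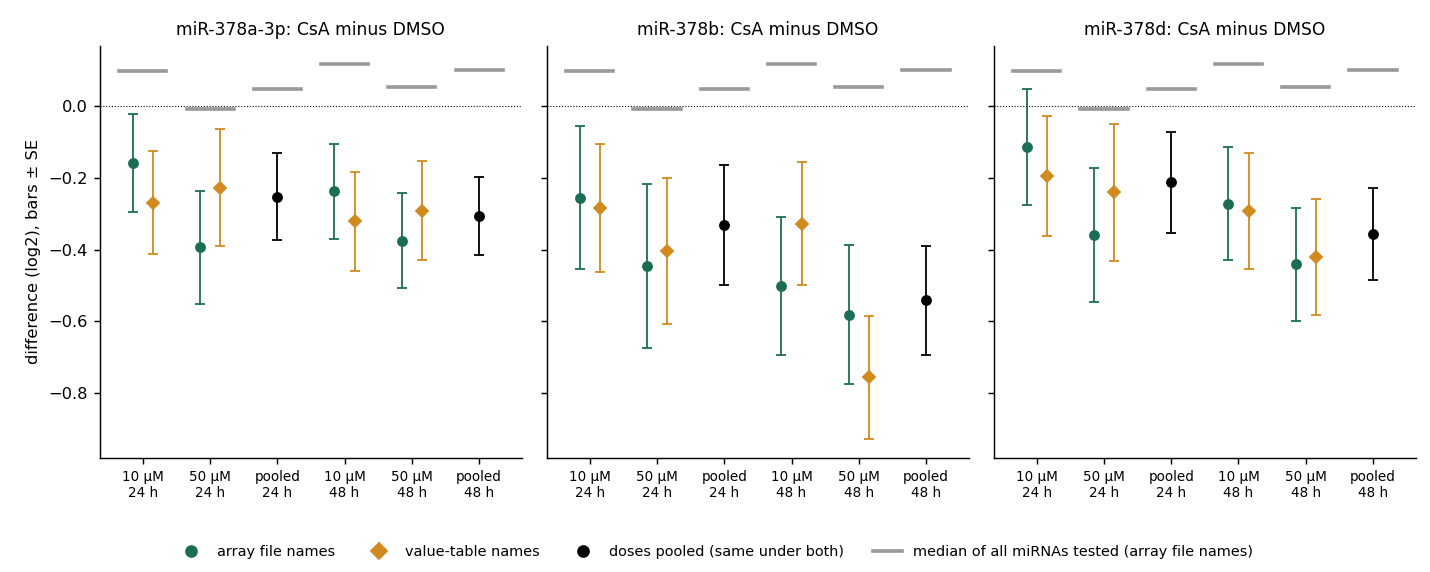
Difference of CsA from DMSO in log2 units (y axis) for miR-378a-3p, miR-378b and miR-378d by dose and time (x axis), under the file names, the value-table names and with doses pooled; bars are ± SE, and grey lines the median of all miRNAs tested by the file names. All values, which are those of the brighter probes, lie below 0, from -0.11 for miR-378d to -0.76 for miR-378b.

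Slides were not spread evenly over the groups. Slide 2 held 2 DMSO arrays of 48 h and no CsA array of 48 h, and slide 1 held 4 of the 6 CsA arrays of 48 h with 1 DMSO array. Within slide 1 the pooled 48 h difference was -0.30 for miR-378a-3p and -0.48 for miR-378b, and within slide 3 it was -0.26 and -0.27. With slide as a block, it was -0.23 ± 0.12 and -0.37 ± 0.14 (SE). At 24 h the values within slides 1, 2 and 3 were -0.53, -0.15 and -0.35 for miR-378a-3p and -0.48, -0.23 and -0.68 for miR-378b. On each slide that held both treatments of a time the mean was lower with CsA, on slide 3 at 24 h from 1 array against 1. Since the pair was picked for lower values with CsA on these arrays, this split adds no support. The 3 arrays that the table names 50 µM, 48 h were all on slide 1, where 1 DMSO array gave differences of -0.27 and -0.55. With slide as a block, the table's 50 µM differences at 48 h were -0.14 ± 0.16 for miR-378a-3p and -0.49 ± 0.18 for miR-378b (SE).

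Placed in order by the file names, the group means of miR-378a-3p ran from DMSO at 24 h through 10 µM at 24 h, DMSO at 48 h, 50 µM at 24 h and 10 µM at 48 h to 50 µM at 48 h. Of the 5 steps between neighbours, the last, 0.14, exceeded the larger SD of its groups. For miR-378b the order was DMSO at 24 h, DMSO at 48 h, 10 µM at 24 h, 50 µM at 24 h, 10 µM at 48 h and 50 µM at 48 h, and none of its steps exceeded the larger SD. By the table names it was the last step of miR-378b, from 10 µM to 50 µM at 48 h, that exceeded the SD, at 0.43 against 0.19, and no step of miR-378a-3p did. Between the doses at 48 h, miR-378b differed by -0.08 ± 0.22 (95% interval from -0.55 to 0.39) by the file names and by -0.43 ± 0.20 by the table names. In the table's naming its 2 dose groups did not overlap, and 25.6% of all miRNAs were lower with 50 µM without overlap. miR-378a-3p differed by -0.14 ± 0.15 and 0.03 ± 0.16 between the doses, a sign that changed with the naming in this scaling and, as given above, with the scaling too. For miR-378b the sign by the file names also changed with the scaling. Within slide 1, which alone held both of the table's dose groups at 48 h, the 50 µM minus 10 µM difference was 0.12 for miR-378a-3p and -0.29 for miR-378b, from 3 arrays against 1. By the file names it was -0.20 and 0.03 within slide 1, and within slide 3 it was -0.0049 and -0.29.

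Between 24 h and 48 h under CsA, with the doses pooled, miR-378a-3p differed by -0.23 ± 0.12 and miR-378b by -0.40 ± 0.16 (SE, n = 6 and 5). The median of all miRNAs was 0.16 in this comparison. Within slide 1 the differences were 0.12 and -0.21 and within slide 3 they were -0.26 and -0.12, so that of miR-378a-3p did not keep its sign within slides. The changes in DMSO over the same time were -0.17 and -0.19, and whether the changes under CsA and DMSO differ was not tested.

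The brighter probes of miR-378a-3p, miR-378b and miR-378d rose and fell together over arrays. miR-378a-3p and miR-378b had Pearson's r = 0.88 and Spearman's rho = 0.90 over 22 arrays (r = 0.85 without the 2 arrays farthest in miR-378a-3p), with r = 0.92 within the 11 DMSO arrays and 0.72 within the 11 CsA arrays. Within slides 1, 2 and 3 their r was 0.76, 0.95 and 0.91. The dimmer miR-378a-3p probe followed the brighter miR-378b probe less closely, at r = 0.74 over all arrays, 0.87 within DMSO and 0.44 within CsA. miR-378d, which is no member of the pair, followed miR-378b at r = 0.95 and miR-378a-3p at r = 0.94. The points of a correlation share their arrays and scaling, so these are a description. The brighter miR-378d probe at 48 h differed from DMSO by -0.36 ± 0.13 with the doses pooled (SE, n = 6 and 6), between the values of the pair. The dimmer miR-378d probe, also above background on 22 arrays, differed by only -0.15 pooled and by -0.0011 with 10 µM by the file names.

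**Figure D4:**
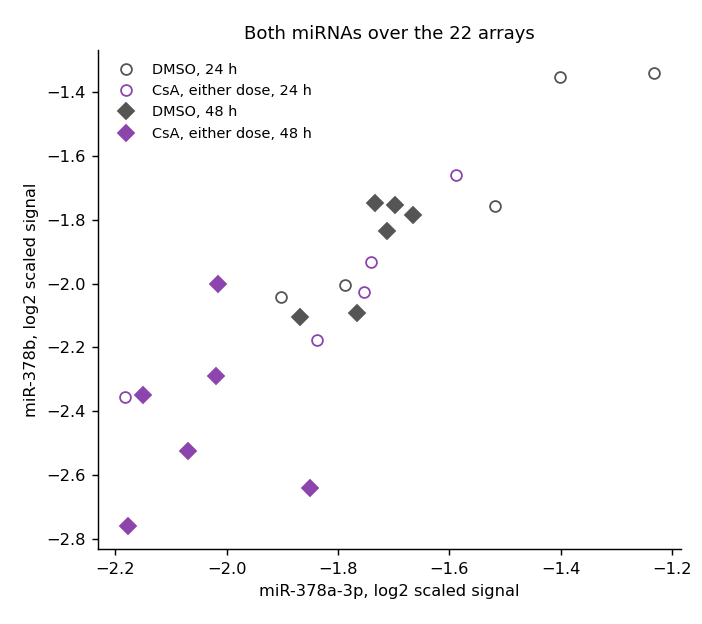
Log2 scaled signal of miR-378b (y axis) against that of miR-378a-3p (x axis) on the 22 arrays; open symbols are 24 h, filled symbols 48 h, grey DMSO and purple CsA of either dose. The CsA arrays of 48 h fill the lower left, with miR-378a-3p at -1.85 or below and miR-378b at -2.0 or below.

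The gap between miR-378b and miR-378a-3p on the same array, set to 0 at the mean of the 11 DMSO arrays, showed where the pair parted. It lay between -0.19 and 0.19 on all DMSO arrays and between -0.20 and 0.07 on the CsA arrays of 24 h. At 48 h, 3 CsA arrays stood at -0.65, -0.44 and -0.32 and 3 at -0.13, -0.06 and 0.15. The first 3 are those that the value table names 50 µM, with a mean of -0.47 ± 0.17 (SD, n = 3), and the others are its 10 µM arrays, with a mean of -0.01 ± 0.15. The files mix them, and give -0.21 ± 0.20 for 50 µM and -0.27 ± 0.40 for 10 µM. The array with the lowest gap, filed as 10 µM replicate 3, also had the highest 75th percentile (605) and the most detected miRNAs (400). The 3 arrays lay on slide 1, whose DMSO array of 48 h had the lowest DMSO gap, -0.19; the 10 µM array of the table on slide 1 had -0.06. The part of the slide in this gap was not tested.

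**Figure D5:**
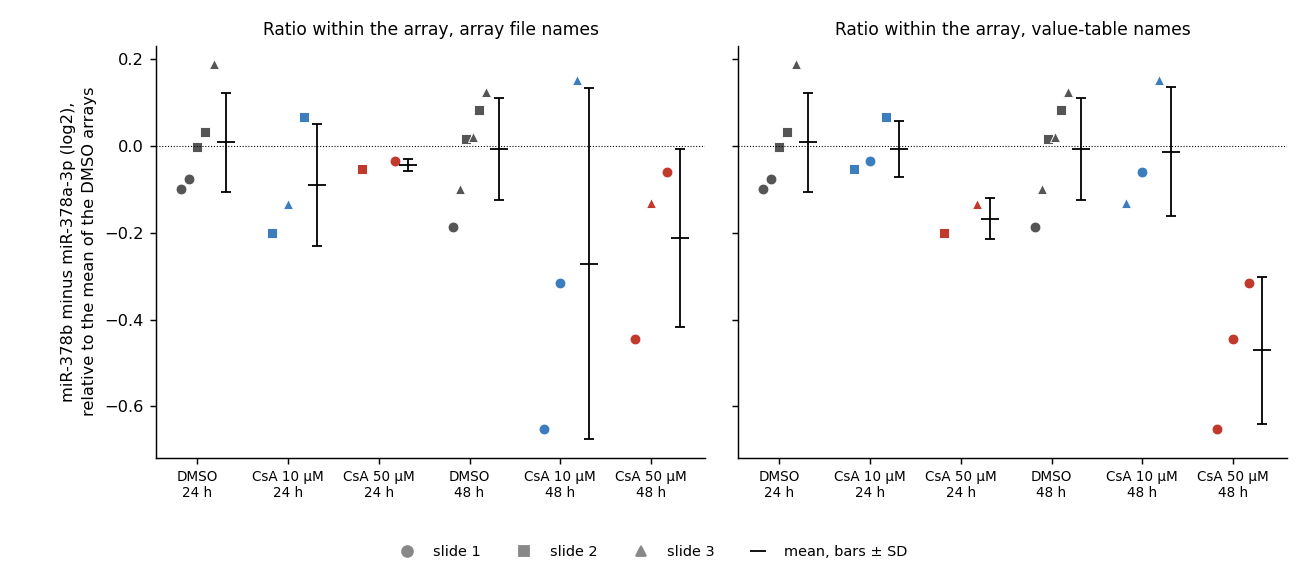
Difference of miR-378b from miR-378a-3p on the same array in log2 units, relative to the mean of the DMSO arrays (y axis), by treatment and time (x axis) under the file names (left) and the value-table names (right); symbols give the slide, and bars the mean ± SD. By the table names the 50 µM, 48 h arrays lie from -0.65 to -0.32 and all other arrays from -0.20 to 0.19.

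Other miRNAs with known roles in hepatic glucose and lipid metabolism, 20 of 25 listed being tested, rarely passed the test by the file names. This list and those below were chosen with earlier results of these arrays known. Their CsA calls and adjusted p-values are therefore a description and no independent support. Against DMSO, 0 of 20 passed limma at 24 h with either dose, where 0% of all miRNAs were called and 21 (7.27%) with 10 µM and 7 (2.42%) with 50 µM had an unadjusted p under 0.05. At 48 h with 50 µM, 0 of 20 passed among 0.346% of all. With the doses pooled at 48 h, 1 was lower, miR-130a-3p, which represses the adipogenic factor PPARγ, at -0.76 ± 0.17 (SE, n = 6 and 6; limma, adjusted p = 0.0277). The share of all miRNAs called in that comparison was 1.04%, and the median was -0.08 over the list and 0.10 over all. With 10 µM at 48 h, miR-27b-3p, a regulator of lipid metabolism genes, was lower (-0.76 ± 0.22; limma, adjusted p = 0.0467), among 6.23% of all. That call was not made by the table names (-0.31; adjusted p = 1) or without 10 µM replicate 2 or 3, when 0 miRNAs were called. In DMSO over time, 0 of 20 passed.

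By the table names more of the list passed at 50 µM and 48 h, in a comparison where many miRNAs were called. There limma called 37.7% of all miRNAs, 79 higher and 30 lower, and with each array scaled over all probes 41 higher and 71 lower. Of the list 7 of 20 were lower, 1 was higher, and the list's median was -0.39 against 0.15 over all. The lowest were miR-185-5p, which represses lipid-synthesis and cholesterol genes (-1.07 ± 0.17; limma, adjusted p = 6.91e-05), miR-130a-3p (-0.99 ± 0.19; adjusted p = 0.00059) and miR-27b-3p (-0.97 ± 0.17; adjusted p = 0.000238). The higher one was miR-370-3p, at 2.47 ± 0.39 (SE; limma, adjusted p = 7.45e-05). Blocking on slide left miR-185-5p at -0.92 and miR-370-3p at 2.22 (limma, adjusted p = 0.00247 and 0.00139), and 63 miRNAs were higher and 17 lower. Of the 8 calls in the list, miR-26a-5p and miR-182-5p were lost with that block (-0.48 and -0.49; limma, adjusted p = 0.0851 and 0.0550). By the table names at 48 h and 10 µM, miR-182-5p and miR-183-5p, of a cluster switched on by the SREBP factors of lipid synthesis, were higher by 0.82 ± 0.15 and 0.66 ± 0.13 (SE; limma, adjusted p = 0.00713 and 0.0161), among 1.04% of all called. With each array scaled over all probes, 0 miRNAs were called there. With 50 µM at the same time and by the same names, miR-182-5p was lower than DMSO, by -0.49 ± 0.15 (SE; limma, adjusted p = 0.0128), while the difference for miR-183-5p was -0.22 (limma, adjusted p = 0.179).

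Intronic miRNAs of other metabolic genes were mostly below background: of 5 listed, miR-33-5p, miR-33-3p and miR-499-5p were above it on 0 arrays. miR-103-3p and miR-107-3p, from introns of the Pank genes of coenzyme A synthesis, were measured throughout. Pooled at 48 h they differed from DMSO by -0.36 ± 0.15 and -0.18 ± 0.13 (SE; limma, adjusted p = 0.145 and 0.397). With 50 µM by the table names, miR-103-3p was lower (-0.64 ± 0.15; limma, adjusted p = 0.00229), and miR-107-3p stood at -0.37 (adjusted p = 0.0638). Of 11 miRNAs linked to mitochondria or brown fat, 7 were tested, and by the file names 1, miR-27b-3p, was called, with 10 µM at 48 h, where 6.23% of all were called. The list's pooled median at 48 h was -0.21, against 0.10 over all. By the table names with 50 µM at 48 h, where 37.7% of all were called, miR-27b-3p was lower and miR-155-5p, an inflammation miRNA, was higher by 0.73 ± 0.17 (SE; limma, adjusted p = 0.00293).

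The entries whose pattern over the 22 arrays was most like the pair's, among 153 miRNAs above background on all arrays and outside the miR-378 names, were largely the same for both. For miR-378b these were miR-192-5p (Pearson's r = 0.90), miR-130a-3p (0.89), miR-185-5p (0.89), miR-26a-5p (0.88) and miR-365-3p (0.84). For miR-378a-3p they were miR-130a-3p (0.74), miR-107-3p (0.74), miR-192-5p (0.72), miR-365-3p (0.71) and miR-26a-5p (0.70). The median r over all candidates was -0.24 and -0.17. Because these entries were picked for following the pair on the same arrays, their differences from DMSO and adjusted p-values are a description only. Pooled at 48 h, miR-192-5p, one of the hepatocyte miRNAs, differed from DMSO by -0.28 ± 0.13 (SE; limma, adjusted p = 0.173). miR-185-5p differed from DMSO by -0.72 ± 0.18 (SE; limma, adjusted p = 0.0518), miR-26a-5p by -0.37 ± 0.15 (adjusted p = 0.139) and miR-365-3p by -0.21 ± 0.15 (adjusted p = 0.385).

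Hepatocyte miRNAs dominated in every group. All 6 listed, among them miR-122-5p, the main miRNA of hepatocytes, were above background on all arrays. Their summed scaled level lay between 44.6 and 56.6 in DMSO at 48 h and between 46.6 and 58.8 with CsA. In DMSO at 24 h it lay between 49.6 and 67.3. From 24 h to 48 h in DMSO all 6 differed below 0, with a median of -0.24 against 0.04 over all, and 0 were called. The part of this in the pair's change over time was not tested. With 50 µM at 48 h by the table names, 5 of the 6 were below DMSO, with a median of -0.14 against 0.15 over all, and miR-192-5p was lower (-0.47 ± 0.14; limma, adjusted p = 0.0150), a call not made with slide as a block (-0.30; adjusted p = 0.196). Of 22 markers of other cells on the array, miR-126-3p of endothelium was above background on 20 arrays and miR-155-5p of leukocytes on 16. The defining markers of leukocytes, stellate cells, red cells, muscle and other epithelia (miR-142-3p, miR-223-3p, miR-143-3p, miR-199a-3p, miR-451a, miR-1a-3p and miR-200b-3p) were above background on 0 arrays. The endothelial sum at 48 h was 0.07 to 0.17 in DMSO and 0.08 to 0.16 with CsA. The leukocyte and Kupffer cell sum at 48 h was 0.06 to 0.09 in DMSO, 0.08 to 0.10 with 10 µM and 0.06 to 0.10 with 50 µM by the file names. miR-155-5p, its 1 marker tested, differed from DMSO by 0.48 ± 0.17 with the doses pooled (SE; limma, adjusted p = 0.106), and its higher level by the table names with 50 µM is given above. The part of other cells in the miR-378 values was not tested. In RNA from whole cultures, fewer cells with a miRNA and less of it per cell cannot be told apart.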

How the data were processed

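Total RNA of 22 cultures was hybridised to 1-colour Agilent miRNA arrays. Per the file headers, the deposited spot intensity (gProcessedSignal) came from Feature Extraction 10.7.3.1, which had subtracted background; it has no depth, and the number of arrays limits precision. The deposited value table holds log2 values that the authors made, using R 2.15.2, as the submitters' processing notes give it; it was rebuilt exactly as quantile-normalised total gene signal raised to at least 0.5. No reads or build were involved.

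Here, spots marked as outliers and controls were left out, the spots of a probe were averaged, each array was divided by its 75th percentile over the 281 probes above background on all arrays, values were raised to a floor of 0.0471, and log2 was taken. A probe was above background on an array where at least 0.5 of its spots were. The brightest probe represented a miRNA. Of 1247 miRNAs, 289 above background on at least 3 arrays entered limma 3.58.1 (R 4.3.3), fitted over the 6 groups, with Benjamini-Hochberg adjustment over all 289. Tables were made with Python 3.11.15. Groups follow the names of the array files, with the value-table names as the alternative. The members, the lists and their tests were chosen with earlier results of these data known. The entries named as most alike were the 5 with the highest Pearson's r among miRNAs above background on all arrays. Alternatives were the names, the scaling, normexp, the probe rule, the floor, the filter, slide or replicate number as a block, fewer groups in the fit, and leaving out each array; value-table names combined with these were added after seeing the data. The fit was tested on simulated data. 0 spots were saturated. p-values measure the spread between these cultures, and DMSO arrays that share a number after "Ex." were counted as separate replicates.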

Additional observations from a re-analysis of the deposited data

How the results depend on the processing

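All 302 values of the pair under the alternatives run by the file names were below 0, as were all 138 by the value-table names. The alternatives use the same arrays again, and the pair was picked for lower values with CsA. The shared sign of the CsA values is therefore no added support. Of the 302, 283 moved by less than the spread between replicates or kept their side of the threshold. In the order 10 µM, 50 µM and doses pooled against DMSO at 48 h, scaling over all probes gave miR-378a-3p -0.75, -0.71 and -0.73 and miR-378b -1.01, -0.91 and -0.96. Quantile normalisation gave miR-378a-3p -0.54, -0.53 and -0.53, and miR-378b -0.76 with 10 µM. normexp gave miR-378a-3p -0.22 with 50 µM and -0.20 pooled, and miR-378b -0.31 with 50 µM. The deposited values gave miR-378a-3p -0.39 with 10 µM and -0.41 pooled, and miR-378b -0.76 and -0.77. The mean over probes gave miR-378a-3p -0.15 with 10 µM, and the table names gave it -0.29 with 50 µM. The cause of these shifts was not tested.

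Leaving out each array in turn, the pair's ranges at 24 h were -0.24 to -0.07 and -0.40 to -0.14 with 10 µM, -0.61 to -0.17 and -0.66 to -0.23 with 50 µM, and -0.34 to -0.16 and -0.42 to -0.24 pooled (miR-378a-3p, then miR-378b). At 48 h they were -0.30 to -0.19 and -0.70 to -0.38, -0.42 to -0.34 and -0.67 to -0.43, and -0.35 to -0.28 and -0.63 to -0.47. In DMSO over time they were -0.26 to -0.09 and -0.27 to -0.10, with limma's adjusted p from 0.618 to 0.969, and from 0.163 to 1 under the other alternatives.

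Counts of called miRNAs over all those tested varied more. With 10 µM at 48 h (18 called), they were 3 by the table names, 0 over all probes, 2 with quantile normalisation, 1 with normexp, 1 with normexp and quantile, 6 with a floor 4 times lower, 2 with the deposited values, 0 with no filter, 3 with slide as a block, 1 with only the groups compared and 3 with controls of the same label tag. With 50 µM at 48 h (1 called), they were 109 by the table names, 12 with the deposited values, 2 with only the groups compared, and 0 with quantile normalisation, normexp, both, or no filter. Pooled at 48 h (3 called), they were 6 over all probes, 5 with quantile normalisation, 5 with normexp and quantile, 28 with the lower floor, 10 with the deposited values, and 1 with no filter and with slide as a block. With 50 µM at 24 h (0 called) the table names gave 11. In DMSO over time (0 called) the lower floor gave 1, and no filter gave 926 of 1247, of which 903 differed by under 0.001 on the log2 scale. Without an array, counts ran from 0 to 88 with 10 µM at 48 h (88 without 10 µM replicate 1, 67 without DMSO replicate 5, 0 without 10 µM replicate 2 or 3), from 0 to 1 with 50 µM, from 1 to 61 pooled (61 without DMSO replicate 5), from 0 to 1, 0 to 0 and 0 to 4 at 24 h with 10 µM, 50 µM and pooled, and from 0 to 1 in DMSO over time.

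With the number after "Ex." in the labels as a replicate block, the DMSO values were -0.18 and -0.22, and the counts were 7 in DMSO over time, 1, 1 and 29 with 10 µM at 24 h, pooled at 24 h and 10 µM at 48 h, 2 with 50 µM at 48 h and 24 pooled at 48 h. Over 40 pairs of groups within a number, the correlation of their mean deviations ran from -0.75 to 0.85 with a median of 0.15, and 22 were over 0.1. Since not every pair was, the numbers were not taken to pair the samples in the main fit. Such a rule cannot exclude that arrays with a shared number are related, and the counts changed with the block.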
